A study of Mus musculus with 45 samples.

Results

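The 9 transcription factor genes that give segments of the gut their identity described here, Cdx1, Cdx2, Gata4, Gata5, Gata6, Hnf4a, Hnf4g, Onecut2 and Pdx1, were followed through all 45 RNA-seq libraries of this mouse series. The genes were taken by name, and each of the 9 was found once among the 52636 genes listed in both expression tables. The series asked what the receptor Lgr5 does in intestinal stem cells (ISCs), and it holds 15 libraries of sorted cells and 30 libraries of organoids, the closed epithelial cultures that grow from intestinal fragments. Values are CPM, the reads of a gene scaled to a common total of reads counted on genes.

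All sorted cells carried a reporter in the Lgr5 locus. In the Lgr5-DTReGFP line, the knock-in puts eGFP and a toxin receptor under the Lgr5 locus, so heterozygous (HE) cells keep 1 working copy and homozygous (KO) cells are Lgr5 null, and eGFP marks the cells that were sorted. At E16.5 (embryonic day), 2 HE pools of 7 and 8 embryos and 2 KO pools of 2 and 6 embryos were made from litters 85 and 97, with both genotypes of a litter in pools of the same number. At E18.5, 2 single HE embryos were used. From adult HE mice of 2 months, numbers 71 and 77, the duodenum and the ileum of each mouse were sorted separately. A different line carries an inducible Cre in the Lgr5 locus: 2 Lgr5-Cre/+ HE and 3 Lgr5-Cre/flox mice labelled conditional KO (cKO), all 2 months old, received 2 mg of tamoxifen 48 hours before eGFP+/RFP+ ileal cells were sorted. The Cre acts only in cells that express it from the Lgr5 locus, HE cells keep 1 working copy, and the flox allele loses 1 exon on recombination. The organoids came from E17.5 Lgr5-DTReGFP small intestine, from 3 wild-type (WT10, WT5, WT30) and 2 KO (KO7, KO2) cultures of 1 embryo each, and at passage 4 every culture was given mouse Rspondin 1, 2 or 3 (Rspo1, Rspo2, Rspo3) at 100 or 5 ng/ml. The 6 libraries of a culture therefore share 1 embryo.

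As background, the gut tube is divided along its length by DNA-binding proteins whose expression stops or starts at segment borders. Pdx1 marks the duodenum, the distal stomach and the pancreas; Gata4 marks the proximal small intestine and is known to fall away before the ileum; Onecut2 is a cut-homeodomain factor of the duodenum. Cdx1 and Cdx2 are caudal homeobox factors that keep intestine from becoming stomach, Gata6 and Gata5 are zinc-finger factors of the whole gut epithelium, and Hnf4a with its paralogue Hnf4g are nuclear receptors of enterocytes, the absorptive cells, where they drive genes of lipid uptake and the brush border. Rspondins are ligands of the Lgr receptors and raise Wnt signalling, which keeps stem cells dividing.

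Pdx1 and Cdx2 lie side by side in the ParaHox cluster on mouse chromosome 5, and they served here as a pair of neighbours that behaved differently along the adult gut. Pdx1 occupies chr5:147269959-147275848 on the plus strand and Cdx2 chr5:147300805-147307270 on the minus strand (GRCm38), with 24956 bases between them. RefSeq on GRCm38.p6 puts the start of each gene inside these positions, 138 bases in for Pdx1 and 21 for Cdx2. Of the 250 bases before each RefSeq start, those that also lie before the position given above are printed 5′ to 3′, 112 for Pdx1 and 229 for Cdx2, with every CG dinucleotide in capitals, because CG-rich upstream sequence is what the promoters of many developmental regulators share.
Pdx1, chr5:147269847-147269958, plus strand: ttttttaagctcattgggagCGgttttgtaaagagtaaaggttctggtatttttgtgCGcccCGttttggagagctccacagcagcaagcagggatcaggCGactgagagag
Cdx2, chr5:147307271-147307499, minus strand: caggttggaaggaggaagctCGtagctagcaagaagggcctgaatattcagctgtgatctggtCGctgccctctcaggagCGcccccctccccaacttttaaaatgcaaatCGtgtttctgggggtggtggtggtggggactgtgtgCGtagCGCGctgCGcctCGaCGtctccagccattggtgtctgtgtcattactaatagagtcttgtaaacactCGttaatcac
The full 250 bases held 10 CG dinucleotides at 54.8% G+C for Pdx1 and 13 at 55.2% for Cdx2, against medians of 6 and 52.4% over 32851 mouse promoters. In windows reaching 50 bases past the RefSeq start, on both strands, neither held the GATA motif AGATAA, also searched with T as its first base and with G as its last (29.8% of all promoters held 1), the CDX motif TTTATG (11.9%) or TATAAA (13.6%). The core CAAAG of the HNF4 motif, present in 53.9% of promoters, stood once in the Pdx1 window, 36 to 40 bases past the RefSeq start.

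The remaining members sit on chromosomes 2 (Gata5, chr2:180325133-180334699, and Hnf4a, chr2:163506808-163572910), 3 (Hnf4g, chr3:3508030-3658052), 14 (Gata4, chr14:63198922-63271692) and 18 (Cdx1, Gata6 and Onecut2). Exons of the antisense transcripts Gata5os and 1010001N08Rik overlap those of Gata5 and Gata6, and no strand setting is given in the sources used here, so reads of those antisense genes cannot be told apart from reads of Gata5 and Gata6.

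Sorted-cell libraries held between 1275545 and 9991834 reads on genes, estimated from the size of 1 read in the CPM values, and organoid libraries at least 18127249 each. The 4 E16.5 libraries were the shallowest. Epithelial markers were high in every sorted library, while mesenchymal markers (14 genes) summed to 335 and 506 CPM in the E16.5 HE pools and to 198 CPM or less in all others. The genotype labels of the Cre-line libraries were in doubt, and 1 organoid library (KO2 at 5 ng/ml of Rspo2) stood apart in Lgr5; results that rest on them are given both ways below. Lgr5 itself, the targeted gene, reached 104 and 125 CPM in E16.5 HE cells but 64.8 and 51.7 CPM in KO cells, a difference of -0.97 ± 0.18 on the log2(CPM + 1) scale (SE; limma, adjusted p = 0.0795).

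When CPM was divided by the summed exon length, so that genes could be set side by side, Hnf4a had the highest level of the 9 in each sorted group, from 75.5 CPM per kb in E16.5 HE to 155 CPM per kb in the Cre-line HE mice. Pdx1 had the lowest level in 6 of 7 groups, from 0.06 CPM per kb in both HE ileum groups to 5.32 at E18.5, and Onecut2 took the lowest place in the Cre-line cKO group at 0.15. Cdx2 exceeded Cdx1 at E16.5 (70.9 against 26.7 CPM per kb in HE), the pair lay close at E18.5 (57.6 and 59.8), and Cdx1 had the higher mean in every adult group, in the DTReGFP ileum by less than the spread between the mice. In organoids Hnf4a ranged from 133 to 203 CPM per kb over the 12 conditions, Hnf4g from 59.3 to 202, and Pdx1 from 22.0 to 39.3. The organoid table came from another library kit, so levels are not compared between the tables with a test.

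**Figure D1:**
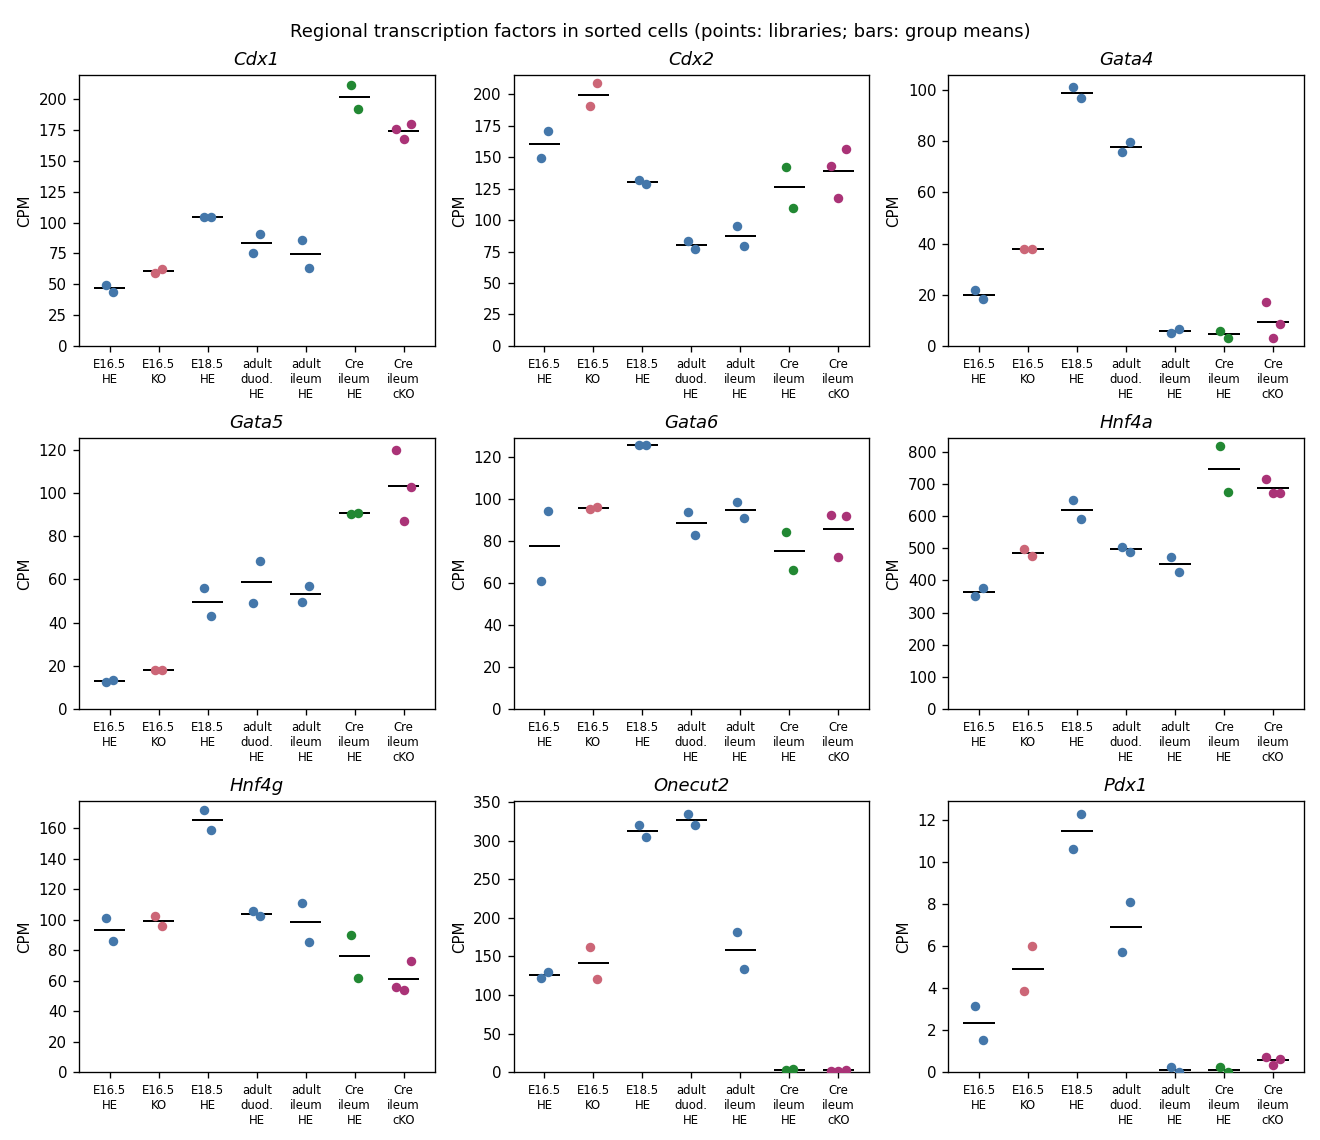
CPM of the 9 genes (vertical axes, linear from 0) in each of the 15 sorted-cell libraries, by group on the horizontal axes, with points for libraries and bars for group means. Pdx1 sits near 0 in every ileal library. Gata4 lies below both duodenal libraries in every ileal library and is highest there in a library labelled cKO. Onecut2 sits between 2.25 and 3.9 CPM in the 5 Cre-line libraries.

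Between E16.5 and E18.5, 8 of the 9 genes rose in HE cells, and Cdx2 did not pass the threshold. Of 18408 genes tested, 49.6% passed it between these ages (adjusted p below 0.1 and a fold above 1.5, limma on log2(CPM + 1)), and the median difference over the members was 1.15 against 0.23 over all genes. The median over 30 other gut transcription factors that could be tested was 0.37, with 12 higher and 4 lower. In this contrast the E16.5 libraries were shallower pools and the E18.5 libraries single embryos, so age, pooling and depth cannot be told apart.

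Gata4 had the greatest difference of the members. Its level was 22.0 and 18.2 CPM in HE cells of E16.5 but 101 and 96.9 CPM in the embryos of E18.5, a log2 difference of 2.25 ± 0.15 (SE, adjusted p = 0.000306). Pdx1 went from 3.15 and 1.55 CPM to 10.7 and 12.3 CPM (1.94 ± 0.37, adjusted p = 0.0072). Both embryos of E18.5 exceeded both pools of E16.5 for these proximal genes. How many of all genes had this order was not counted, and 5576 of 18408 genes passed as higher at E18.5.

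Gata5, which in the embryo is also known from heart and endoderm, went from 12.6 and 13.7 CPM to 55.9 and 43.0 CPM (1.83 ± 0.20, adjusted p = 0.00113). Onecut2 rose by 1.30 ± 0.10 (adjusted p = 0.000405), from 122 and 130 CPM to 321 and 305 CPM. Cdx1 rose by 1.15 ± 0.12 (adjusted p = 0.00111), from 49.4 and 43.9 CPM to 105 CPM in both embryos. The paralogues Hnf4g and Hnf4a rose by 0.82 ± 0.12 and 0.76 ± 0.10.

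Gata6 rose by 0.72 ± 0.20 (adjusted p = 0.0276), but the call rested on HE pool 1, which had 61.2 CPM where pool 2 had 94.4 CPM; without pool 1 the difference was 0.41, below the fold required, and without the filter on low values the adjusted p was 0.129. Cdx2 was measured at 150 and 171 CPM at E16.5 and at 131 and 129 CPM at E18.5, a difference of -0.30 with an interval from -0.57 to -0.02 and an adjusted p of 0.0703, short of the fold of 1.5.

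Other cell types moved along with this comparison. All 12 mesenchymal markers tested were lower at E18.5 (median -2.90), as were the 3 immune and 4 endothelial markers tested, and all 5 stem cell markers were higher. In bulk samples fewer cells of a type and less RNA per cell cannot be told apart, and the part of these cells in the members' differences was not tested.

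From E18.5 to adult mice, taking duodenum and ileum with equal weight, 4 of the 9 genes fell and none rose, where 25.0% of 19554 genes passed the threshold. Gata4 fell by 2.13 ± 0.14 and Pdx1 by 2.07 ± 0.26. For both genes these values average a duodenum below the embryonic level and an ileum much further below it. When the 4 adult libraries were taken as 1 group instead, neither passed (adjusted p = 0.245 and 0.168). Hnf4g fell by 0.71 ± 0.13 (adjusted p = 0.00318), from 172 and 159 CPM to between 85.7 and 111 CPM in the 4 adult libraries. Cdx2 fell by 0.64 ± 0.12 (adjusted p = 0.00351) to between 76.8 and 95.2 CPM, although it fell short of the fold of 1.5 after TMM scaling (-0.57) and without the ileum of mouse 77 (-0.57).

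Gata6 and Hnf4a differed by -0.46 ± 0.11 and -0.39 ± 0.10, with adjusted p-values of 0.0140 and 0.0218 but less than the fold required. Gata5 differed by 0.18 with an interval from -0.21 to 0.56. The embryos were sorted from the whole small intestine, so a change with age and a change in the length of gut sampled cannot be told apart within this contrast. Paneth cell markers (5 genes) summed to 125 and 133 CPM at E18.5 and to between 10357 and 26509 CPM in the adult libraries; their part in the members' differences was not tested.

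Set against each region separately, the same 2 embryos gave another pattern. In the duodenum 2 members passed, against 25.0% of all genes: Cdx2 (-0.70 ± 0.13) and Hnf4g (-0.66 ± 0.15), the latter lost after TMM scaling and without embryo 1. The adult duodenum had 75.7 and 79.7 CPM of Gata4, a difference from E18.5 of -0.35 with an interval from -0.72 to 0.02. It had 334 and 320 CPM of Onecut2, a difference of 0.06 with an interval from -0.28 to 0.41. Pdx1 did not pass either, although both adult duodena had less of it than either embryo. In the ileum 4 members passed, against 23.0% of all genes: Gata4 (-3.91 ± 0.16), Pdx1 (-3.48 ± 0.30), Onecut2 (-0.996 ± 0.15) and Hnf4g (-0.75 ± 0.15), the last short of the fold without the ileum of mouse 77 (-0.57). Both contrasts share the 2 embryos.

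The direct test of region within the adult mice found 3 of the 9 genes lower in the ileum and none higher, and 9.23% of all genes passed in either direction. These 3 were Gata4, Pdx1 and Onecut2. All 3 passed under each alternative tried, including the fit with the mouse as a block, which took account of both regions coming from the same 2 animals.

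Gata4 was measured at 75.7 CPM in the duodenum of mouse 71 and at 4.9 CPM in its ileum, and at 79.7 and 6.45 CPM in mouse 77. The log2 difference was -3.57 ± 0.16 (SE, n = 2 mice, limma adjusted p = 1.125e-05). From the reads behind these values, about 779 in the duodenum and 48 in the ileum, the ratio of the regions was 13.7 with an exact 95% interval from 10.2 to 18.7 that covers counting error only. Gata4 was thus still detected in both ilea.

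Pdx1 was measured at 5.75 and 8.1 CPM in the duodenum and at 0.25 and 0 CPM in the ileum. At these depths that is about 68 reads in the duodenum against 1 read in the ileum, a ratio of 57.3 with an exact 95% interval from 9.95 to 2296 for counting error only. The fitted difference was -2.81 ± 0.30 (adjusted p = 0.000868) with 1 CPM added and -5.21 with 0.1 CPM added, so its size depends on that constant.

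In the DTReGFP line Onecut2 was lower in the ileum without being lost from it, whereas the Cre-line ilea described below had little. It had 334 and 182 CPM in the duodenum and ileum of mouse 71 and 320 and 134 CPM in those of mouse 77, a log2 difference of -1.06 ± 0.15 (adjusted p = 0.00348). Both ileal values exceeded the 122 and 130 CPM of the HE pools at E16.5.

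**Figure D2:**
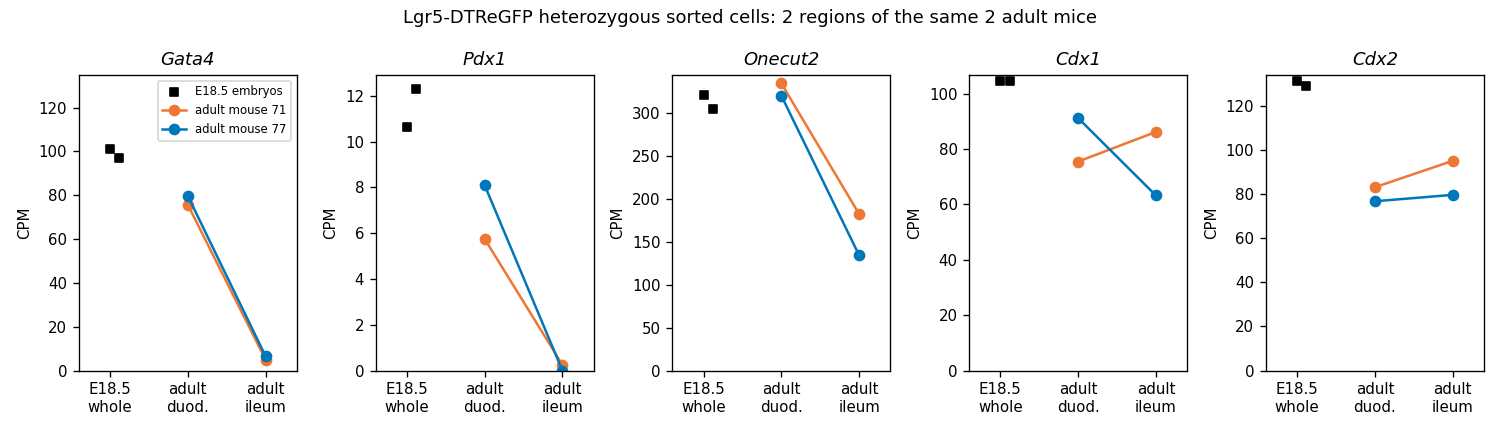
CPM (vertical axes, linear from 0) of 5 genes in the 2 E18.5 embryos (squares) and in the duodenum and ileum of 2 adult HE mice, with a line for each mouse. The lines of Gata4, Pdx1 and Onecut2 fall in both mice, those of Cdx2 rise slightly in both, and those of Cdx1 cross.

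The other 6 genes did not pass between the regions, and their intervals limit how far the regions could differ. Cdx1, read at 75.5 and 91.2 CPM in the duodenum and at 86.2 and 63.2 CPM in the ileum, went opposite ways in the 2 mice and differed by -0.17 (interval -0.55 to 0.22). Cdx2 differed by 0.12 (-0.18 to 0.43), Gata6 by 0.10 (-0.19 to 0.38), Gata5 by -0.13 (-0.57 to 0.32), Hnf4a by -0.14 (-0.41 to 0.13) and Hnf4g by -0.09 (-0.42 to 0.24). Each of these intervals lies inside the fold of 1.5.

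Other factors and regional genes were read from gene lists, which were chosen with earlier results of these data known. Of 32 other gut transcription factors tested, 8 were higher in the ileum and 3 lower, and their median difference of -0.03 was close to the 0.03 of all genes. Among the higher were Hox genes of the B cluster, which are ordered along the body axis: Hoxb9 (4.67 ± 0.31), Hoxb6 (4.06 ± 0.31), Hoxb8 (3.80 ± 0.34) and Hoxb7 (2.89 ± 0.28). Osr2 (2.24), the bile acid receptor Nr1h4 (1.25) and Foxa1 (1.09) were higher too. The lower genes were Creb3l3 (-2.27 ± 0.34) and Ppara (-1.30 ± 0.24), both factors of lipid metabolism, and Tbx3 (-1.01 ± 0.24).

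Genes known for use in 1 region, from lists chosen with the same knowledge, went the way of that region wherever they passed. Of 12 proximal genes 6 were lower in the ileum and none higher, among them Gkn3 (-4.88), the lactase gene Lct (-3.58) and the fatty acid carrier Fabp1 (-3.27). Of 10 distal genes 5 were higher and none lower, among them the glucagon gene Gcg (5.08), the bile acid carrier Fabp6 (4.75) and the bile acid transporter Slc10a2 (2.44). Of 6 enterocyte markers 5 were also lower in the ileum, with summed levels of 176 and 293 CPM against 450 and 739 CPM, and their part was not tested; the mesenchymal sum was at most 17.3 CPM in these libraries, and markers of pancreas summed to at most 0.75 CPM.

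The ileal cells of the Cre line also had little Gata4 and Pdx1, and they had little Onecut2 as well. Gata4 lay between 3 and 17.2 CPM and Pdx1 between 0 and 0.75 CPM in the 5 Cre-line mice, beside 4.9 to 6.45 and 0 to 0.25 CPM in the DTReGFP ilea. Onecut2 lay between 2.25 and 3.9 CPM beside 134 and 182 CPM, Cdx1 between 168 and 212 CPM beside 63.2 and 86.2 CPM, and Gata5 between 87.1 and 120 CPM beside 49.4 and 57 CPM. These are values side by side with no test, because the lines differ in the sorting gate, the tamoxifen and the reporter, which cannot be told apart. Mitochondrial transcripts made up 2.61% to 3.56% of CPM in the Cre-line libraries and 5.34% to 5.64% in the DTReGFP ilea, and enteroendocrine markers summed to between 274 and 915 CPM against 25.2 and 61.0 CPM; the part of either was not tested.

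Loss of Lgr5 was examined first at E16.5. None of the 9 genes passed between KO and HE pools, where 0.527% of 17276 genes passed (91 genes; 2354 at an unadjusted p below 0.05). All 9 nevertheless had a positive difference, with a median of 0.38 against 0.08 for all genes, and for 7 of the 9 both KO pools lay above both HE pools, an order found in 27.4% of all genes. The exceptions were Hnf4g and Onecut2, whose pools overlapped.

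Gata4 had the greatest difference among them. The HE cells had 22.0 and 18.2 CPM and the KO cells 38.0 and 37.8 CPM, a log2 difference of 0.89 ± 0.23 with an interval from 0.39 to 1.39 (adjusted p = 0.147). With the litter as a block, which the labels provide, the adjusted p was 0.0230 and 830 genes passed instead of 91. It also passed without HE pool 1 (adjusted p = 0.0147) and without HE pool 2 (0.0805, where Gata6 passed as well at 0.0408), and it did not pass with edgeR (0.113) or DESeq2 (0.622) on reads recovered from the CPM.

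Hnf4a, at 352 and 377 CPM in HE and 496 and 476 CPM in KO, differed by 0.42 ± 0.13 (adjusted p = 0.219). Pdx1, at 3.15 and 1.55 CPM in HE and 3.85 and 6 CPM in KO, differed by 0.84 with an interval from -0.24 to 1.93. The remaining differences lay between 0.09 (Hnf4g) and 0.43 (Gata5). Beside these, mesenchymal markers summed to 335 and 506 CPM in HE and to 70.7 and 198 CPM in KO, endothelial markers to between 23.8 and 44.8 against between 5.05 and 21.2 CPM, and immune markers to between 36.5 and 62.1 against between 12.8 and 23.1 CPM; epithelial markers summed to 2905 and 3194 CPM in HE and to 3397 and 3601 CPM in KO. Enterocyte markers summed to between 743 and 1041 CPM in HE and between 488 and 538 CPM in KO, and mitochondrial transcripts made up 8.21% and 7.24% of CPM in HE and 5.74% and 5.85% in KO. The part of any of these in the members' differences was not tested.

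Genes known for use in 1 region were also read at E16.5. Of 11 proximal genes tested 3 were lower in KO and none higher, namely Adh1 (-2.03), Fabp1 (-1.70) and Lct (-1.51), and of 32 other factors tested Creb3l3 was lower (-1.50) and none was higher. No distal gene passed among 5.

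In adult ileum, the comparison of libraries labelled cKO with those labelled HE called none of the 8 members that could be tested, and 10 of 19848 genes (0.0504%; 902 at an unadjusted p below 0.05). Pdx1 was too low to test. Gata4 had 6 and 3.25 CPM in HE and 17.2, 3 and 8.45 CPM in cKO, groups that overlap, with an interval from -0.71 to 2.10. The intervals of Cdx1 (-0.48 to 0.07), Hnf4a (-0.42 to 0.19), Gata5 (-0.20 to 0.55) and Gata6 (-0.22 to 0.59) were narrower.

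These labels carry a doubt. Another listing of the same 5 libraries by the study exchanges HE and cKO for some of them: the libraries labelled HE 1, cKO 1 and cKO 3 as cKO, and those labelled HE 2 and cKO 2 as HE. Lgr5 was measured at 52.8 and 87.6 CPM in the libraries labelled HE and at 89.2, 109 and 90.7 CPM in those labelled cKO, and a total over the gene does not check the deletion of 1 exon. Under the exchanged genotypes 779 genes passed and again none of the 8 members, with Gata4 at a difference of 1.37 (adjusted p = 0.107). The exchanged grouping also splits the libraries by depth: HE 1, cKO 1 and cKO 3 held 8122621 to 9991834 reads and 32121 to 42154 genes above 0, and HE 2 and cKO 2 held 3084490 and 5727817 reads and 22675 and 24944 genes, so that depth and genotype cannot be told apart in that grouping.

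In organoids the strength of the Rspondin stimulus moved Hnf4g most. With 100 ng/ml, compared with 5 ng/ml, Hnf4g was lower under each ligand in WT cultures, with log2 differences from -1.16 to -0.77, together with lower Gata6 and Gata4 under Rspo1 and Rspo2, and the KO cultures showed lower Hnf4g under Rspo1 and Rspo3. Over both genotypes the dose contrasts gave 18 calls of 54, and the lowest were those of Hnf4g. These contrasts pass a large share of the transcriptome, so the count of 18 calls does not set the members apart from other genes. In WT 53.4% of genes passed under Rspo1, 33.4% under Rspo2 and 51.4% under Rspo3, and in KO 29.8%, 0.115% and 44.5% (adjusted p below 0.05, limma).

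Hnf4g under Rspo1 was measured at 337, 494 and 412 CPM with 5 ng/ml and at 178, 201 and 197 CPM with 100 ng/ml in WT10, WT30 and WT5 (-1.09 ± 0.18, adjusted p = 2.614e-05). In KO2 and KO7 it was at 391 and 436 CPM and then at 197 and 174 CPM (-1.15 ± 0.21, adjusted p = 0.000547). No library at 100 ng/ml reached the level of a library at 5 ng/ml under this ligand.

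The order of the doses was the same under Rspo3. Hnf4g had 484, 555 and 554 CPM at the low dose and 296, 356 and 286 CPM at the high dose in WT10, WT30 and WT5 (-0.77 ± 0.18, adjusted p = 0.000874), and 535 and 524 CPM against 254 and 244 CPM in KO2 and KO7 (-1.09 ± 0.21, adjusted p = 0.000284).

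Under Rspo2 the 2 KO cultures went opposite ways. WT10, WT30 and WT5 had 329, 408 and 305 CPM of Hnf4g at 5 ng/ml and 147, 130 and 191 CPM at 100 ng/ml (-1.16 ± 0.18, adjusted p = 6.123e-05), whereas KO7 went from 268 to 137 CPM and KO2 from 205 up to 236 CPM (-0.38 ± 0.21, adjusted p = 0.792). The KO2 library at 5 ng/ml of Rspo2 stood apart in Lgr5 as well, a Wnt target that was lower at 5 ng/ml in every other pair of libraries but stood at 90.5 CPM here and at 75 CPM at 100 ng/ml. Paneth markers, by contrast, had higher sums at 5 than at 100 ng/ml of Rspo2 in both KO cultures (1005 against 920 CPM in KO2, 1018 against 717 CPM in KO7), where those of WT lay between 372 and 432 CPM at 5 ng/ml and between 1123 and 1866 CPM at 100 ng/ml. Stem cell markers summed to 694 and 2072 CPM in the KO libraries at 5 ng/ml of Rspo2, where WT had 146 to 540 CPM. At 100 ng/ml the sums were 1635 and 1739 CPM in KO and 2132 to 3158 CPM in WT. The paper reports that in Rspo2 cultures Wnt target genes stayed higher in KO than in Lgr5-expressing organoids whatever the concentration. Whether the dose label of the KO2 library is right was not tested. The difference between the genotypes in the dose effect on Hnf4g was 0.78 and did not pass (adjusted p = 0.228); without KO7 it passed, and without KO2 the KO difference was -0.97 (adjusted p = 0.177). No member passed this interaction, and 0.146% of genes did over the 3 ligands.

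**Figure D3:**
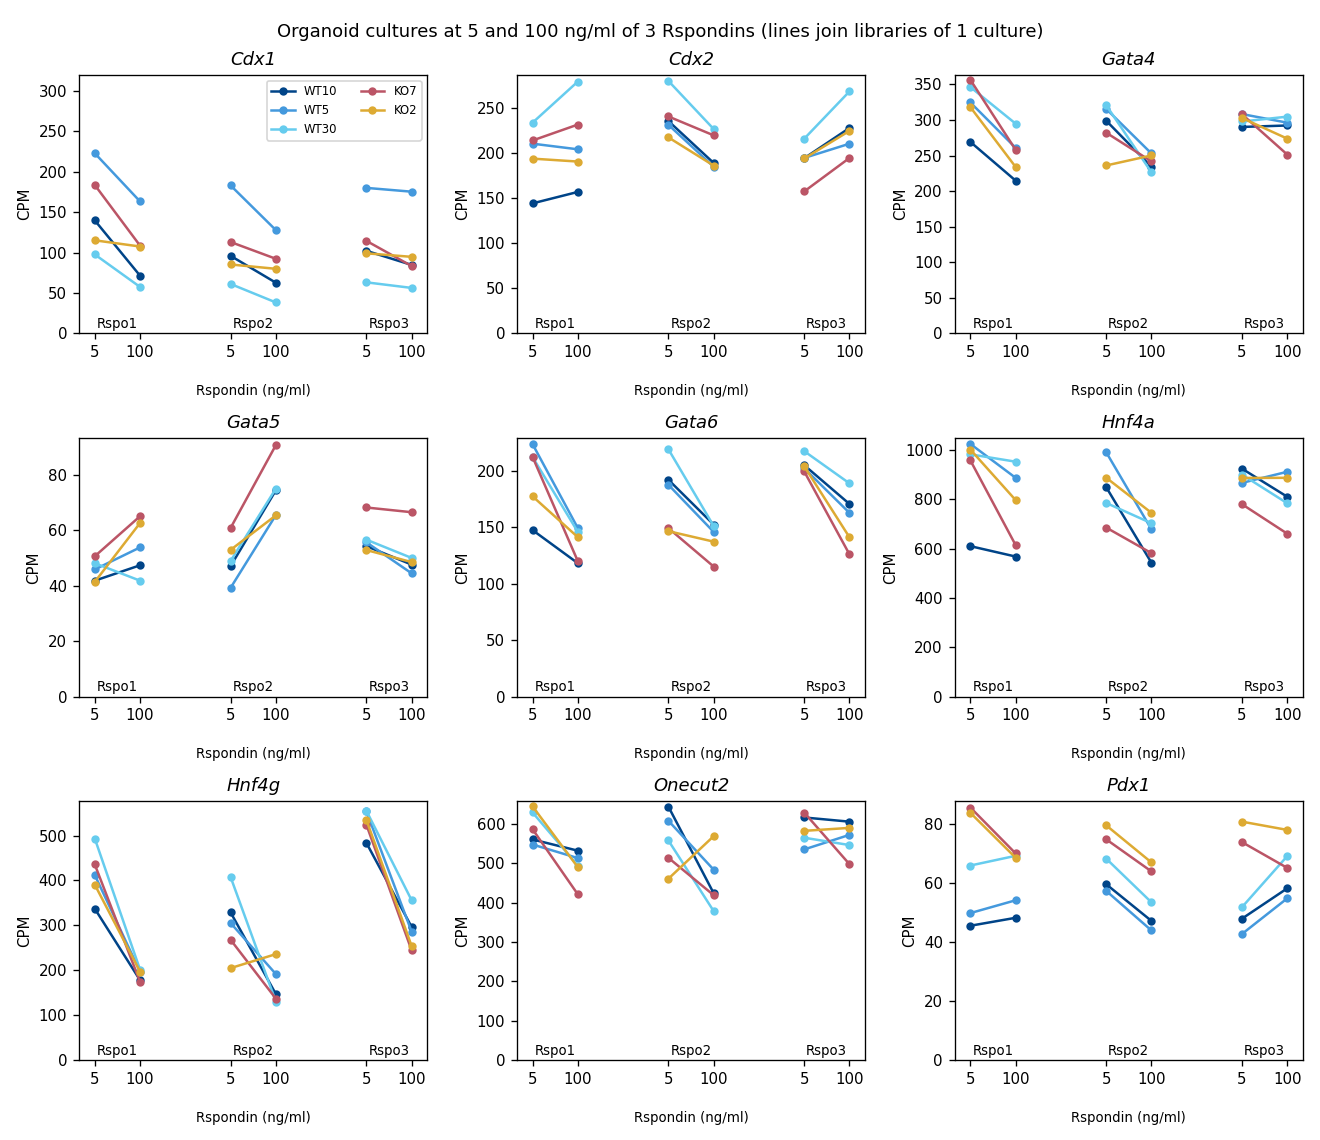
CPM (vertical axes, linear from 0) of the 9 genes at 5 and 100 ng/ml of Rspo1, Rspo2 and Rspo3, with a line for each of 3 WT and 2 KO cultures. Hnf4g falls from left to right in 14 of 15 lines, Cdx1 and Gata6 in all 15, and the KO lines of Pdx1 lie mostly above the WT lines.

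Enterocyte markers moved with the dose too. Their sum (6 genes) lay between 6703 and 7007 CPM at 5 ng/ml and between 2487 and 2700 CPM at 100 ng/ml of Rspo1 in WT, and between 9515 and 10179 against between 3918 and 6555 CPM under Rspo3, while the sum of stem cell markers was 174 to 235 CPM against 1261 to 1877 CPM under Rspo1. The part of these cells in the members' differences was not tested.

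Gata6 was lower at 100 ng/ml in all 15 pairs of libraries of 1 culture and ligand, and so was Cdx1; 4.27% of all genes were lower in every pair. Gata6 passed under Rspo1 (-0.48 ± 0.13) and Rspo2 (-0.41 ± 0.13) in WT and under Rspo1 (-0.57 ± 0.16) and Rspo3 (-0.59 ± 0.16) in KO. Under Rspo1 its WT levels were 148, 212 and 224 CPM at the low dose and 118, 146 and 149 CPM at the high dose in WT10, WT30 and WT5. Cdx1 did not pass in any of the 6 contrasts, since the cultures differed more from one another than between doses: WT5 ranged from 128 to 223 CPM and WT30 from 38.4 to 97.8 CPM over the 6 conditions. With the culture as a block, Cdx1 passed in WT under Rspo1 (-0.72) and Rspo2 (-0.59).

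Gata4 was lower at the high dose under Rspo1 (-0.29 ± 0.10) and Rspo2 (-0.39 ± 0.10) in WT and under Rspo1 (-0.45 ± 0.13) in KO. Onecut2 was lower under Rspo2 in WT (-0.50 ± 0.12), from 645, 559 and 609 CPM to 424, 379 and 484 CPM in WT10, WT30 and WT5, and under Rspo1 in KO (-0.44 ± 0.14). Gata5 went the other way under Rspo2 in WT, where it was measured at 47.1, 49.0 and 39.3 CPM at 5 ng/ml and at 74.5, 75.1 and 65.5 CPM at 100 ng/ml (0.66 ± 0.14, adjusted p = 0.00105), and under Rspo1 in KO (0.47 ± 0.17), a call lost in 4 of 6 alternatives (adjusted p up to 0.397). Pdx1 was lower at 100 ng/ml of Rspo2 (-0.35 ± 0.13) and higher at 100 ng/ml of Rspo3 (0.35 ± 0.13) in WT; each of these calls was lost in 4 of 7 alternatives, the former at an adjusted p of up to 0.154 and the latter with a difference of 0.09 after TMM scaling. Cdx2 and Hnf4a did not pass in any dose contrast.

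The scale matters for these values. The median difference over all genes was between 0.17 and 0.28 in the 3 WT dose contrasts, and TMM scaling moved the median by between -0.20 and -0.28, so that the members stood lower relative to other genes than the CPM alone shows. TMM also moved the median by -0.20 and -0.22 in the KO contrasts of Rspo1 and Rspo3, by -0.13 in the cKO contrast and by 0.13 in the Rspo2 interaction. With the culture as a block, 15 dose calls were made in WT where 11 were made without it, and 10 in KO instead of 7. Without WT30 the WT calls fell to 6, without KO7 the KO calls fell to 1 and without KO2 to 4.

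The ligands were compared at the same dose, in 6 contrasts per genotype. In WT 6 of 54 differences between members passed, all of them between Rspo3 and Rspo2. Over the 6 contrasts 16.2% of genes passed, but unevenly. Between Rspo3 and Rspo2 the share was 44.9% at 5 ng/ml and 12.7% at 100 ng/ml. Between Rspo2 and Rspo1 it was 22.8% and 0.204%, and between Rspo3 and Rspo1 16.4% and 0.00523%. With the culture as a block 17 differences between members passed. Hnf4g was higher with Rspo3 than with Rspo2 by 0.62 ± 0.18 at 5 ng/ml and by 1.01 ± 0.18 at 100 ng/ml. At 100 ng/ml Gata5 was lower with Rspo3 (-0.59 ± 0.14), and Onecut2 (0.43 ± 0.12) and Gata4 (0.32 ± 0.10) were higher; at 5 ng/ml Pdx1 was lower (-0.37 ± 0.13). Without WT10 or WT30 2 of these calls held and without WT5 3.

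In KO 4 differences passed, against 13.5% of genes, all of them at 5 ng/ml and with Rspo2 as 1 of the ligands. Genes at large passed as unevenly. At 5 ng/ml the share was 46.7% between Rspo3 and Rspo2, 17.9% between Rspo2 and Rspo1 and 16.2% between Rspo3 and Rspo1. At 100 ng/ml these shares were 0%, 0.0105% and 0%, so the dose of the calls does not set the members apart. Hnf4g was lower with Rspo2 than with Rspo1 (-0.82 ± 0.21) and higher with Rspo3 than with Rspo2 (1.17 ± 0.21), Gata4 was lower with Rspo2 than with Rspo1 (-0.38 ± 0.13) and Gata6 was higher with Rspo3 than with Rspo2 (0.45 ± 0.16). The KO2 library that stood apart in Lgr5 enters each of these contrasts, and without KO2, or without KO7, 1 call held. With the culture as a block 10 passed and after TMM scaling 7.

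Between KO and WT organoids none of the 9 genes passed, whether the 5 culture means were compared (0.152% of genes passed) or the 6 conditions separately (1.19%). Pdx1 came closest. Its geometric mean over 6 libraries was 76.1 CPM in KO2 and 72.0 CPM in KO7, and 50.8, 62.6 and 50.2 CPM in WT10, WT30 and WT5, so that both KO cultures lay above the 3 WT cultures, an order found in 14.4% of all genes. The difference was 0.44 ± 0.12 with an interval from 0.17 to 0.71 (adjusted p = 0.292).

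Of 3 stomach markers tested on the culture means, 2 were higher in KO. Gkn1 (1.31) and Gkn2 (1.01), secreted proteins of the gastric lining, passed (adjusted p = 0.0338 for both, limma), and the trefoil factor Tff1 did not (2.28, adjusted p = 0.133). With 5 ng/ml of Rspo3 all 3 passed, and the 5 markers summed to 29.0 and 71.4 CPM in KO2 and KO7 beside 5.55, 1.35 and 1.4 CPM in WT10, WT30 and WT5. Over all conditions the sums lay between 3.4 and 71.4 CPM in KO and between 0.3 and 8.15 CPM in WT, and Sox2, which defines the embryonic stomach, was listed at 0 in all 30 libraries. The part of such cells in the difference of Pdx1 was not tested.

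By condition, Pdx1 in KO2 and KO7 stood at 83.9 and 85.7 CPM with 5 ng/ml of Rspo1 beside 45.6, 66 and 49.9 CPM in WT10, WT30 and WT5, and at 80.9 and 74.0 CPM with 5 ng/ml of Rspo3 beside 48.0, 51.9 and 42.8 CPM. With the culture as a random block these differences were 0.66 and 0.70 and passed (limma, adjusted p = 0.0204 and 0.00815), and both also passed without WT30. Genotype differed only between cultures, and this block applies 1 correlation (0.336) to all genes. It may therefore understate the spread of Pdx1 between cultures, and the test on culture means did not pass. Gata5 was the other gene with both KO culture means above the WT means (0.21, interval -0.05 to 0.46). For Cdx2, Gata4, Hnf4g and Onecut2 the intervals of the KO difference stayed between -0.36 and 0.24, whereas Cdx1 had a wide one, from -0.81 to 0.98.

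**Figure D4:**
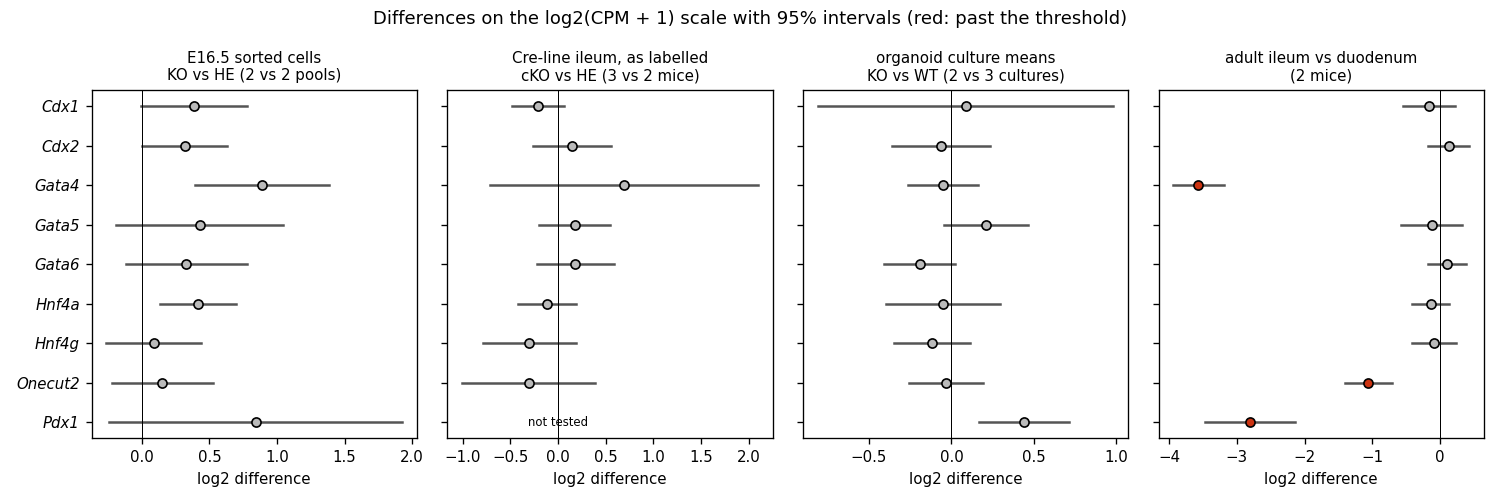
Differences on the log2(CPM + 1) scale (horizontal axes) with 95% intervals for the 9 genes (rows) in 3 comparisons of Lgr5 genotype and in adult ileum vs duodenum, with red points past the threshold. The red points are Gata4, Pdx1 and Onecut2 in the comparison of regions, and every genotype interval except those of Gata4 and Hnf4a at E16.5 and Pdx1 in organoids spans 0.

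Across libraries some members had nearly the same profile, which is given as a description. Over the 15 sorted libraries the gene most like Pdx1, among 10922 genes with a mean of at least 10 CPM, was Gata4 (Pearson r = 0.965 of log2 values), and the gene most like Gata4 was Prdm16, which encodes a zinc-finger regulator (0.973). Onecut2 was most like the mitochondrial gene mt-Co1 (0.985), and both split the Cre-line libraries from the others. Cdx1 and Hnf4a correlated at 0.943. These libraries share lines and stages, so that the coefficients mostly describe differences between groups.

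Over the 30 organoid libraries, among 10635 genes, Hnf4g was most like Sec23a, a coat protein of secretory vesicles (0.984), and Mall (0.982). Gata5 was most like its antisense neighbour Gata5os (0.955), whose reads cannot be told apart from its own. Gata6 was most like Ttyh3 (0.95). The libraries share 5 cultures, 3 ligands and 2 doses.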

How the data were processed

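RNA-seq was measured in 15 sorted-cell and 30 organoid libraries. Per the paper's methods and the submitters' processing notes, the authors trimmed reads with Trimmomatic 0.36, aligned them to GRCm38 with STAR 2.5.3a and counted genes with HTSeq 0.9.1 (Ensembl 90); sorted cells were prepared with Ovation SoLo and organoids with NEBNext after rRNA depletion. The deposited values are CPM, which the authors rounded up to multiples of 0.05. The multiples gave the depth: 1275545 to 9991834 reads on genes in sorted cells, and at least 18127249 in organoids. A deeper library resolves a low gene better, and intervals on reads cover counting error only.

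The members, gene lists and tests were chosen with earlier results of these data known. All genes were fitted with limma 3.58.1 (R 4.3.3) on log2(CPM + 1), with a mean-variance trend and Benjamini-Hochberg adjustment over the genes that reached 1 CPM in 2 or more libraries. A gene passed in sorted cells at an adjusted p below 0.1 and a fold above 1.5, and in organoids at an adjusted p below 0.05. The E16.5 comparison, the comparison with E18.5 and the Cre line were each fitted on their own libraries, the adult regions with E18.5, and the 30 organoid libraries together. Groups came from the deposited labels; where nothing names separate animals, p-values measure only the spread between these samples.

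Named genes were the 9 members, Lgr5, list genes past the threshold in a described comparison, and for each member the genes with the highest Pearson r. One list gene counted among those that passed is not reported here by name. Positions came from GENCODE M21 (52403 of 52636 identifiers matched) and upstream sequences from RefSeq on GRCm38.p6, used for Pdx1 and Cdx2. Ileum and duodenum came from the same mice (correlation of deviations from the group means 0.257), E16.5 pools shared litters (-0.032), and libraries of 1 organoid culture deviated together in all 75 pairs (r 0.155 to 0.827). Alternatives were another pseudocount (0.1), no filter on low values, TMM scaling, a replicate block, a joint fit, each library left out and, for E16.5, edgeR 4.0.16 and DESeq2 1.42.0 on whole reads recovered from the CPM. Self-tests ran on simulated data.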

Additional observations from a re-analysis of the deposited data

Results flagged for a closer look

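The change from E18.5 to the adult differed between the ileum and the duodenum for 3 of the 9 genes, by a test of the difference itself: by -3.57 for Gata4, by -2.81 for Pdx1 and by -1.06 for Onecut2 on the log2(CPM + 1) scale, in both mice each. Since both regions were set against the same 2 embryos, these values equal the direct comparison of the regions, where 9.23% of all genes passed.

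The effect of the Rspo2 dose on Lgr5 was smaller in KO than in WT cultures by -3.51 (adjusted p = 0.0434, limma), with Lgr5 at 90.5 and 20.6 CPM at 5 ng/ml and at 75 and 104 CPM at 100 ng/ml in KO2 and KO7. The KO2 library at 5 ng/ml is the one that stood apart in Lgr5: without KO2 the value was -2.23 (adjusted p = 0.802), without KO7 -4.79 (adjusted p = 0.00984), and after TMM scaling -3.36 (adjusted p = 0.0559). With 1 KO culture left out, the lone KO library of a condition is assumed to vary like the other groups.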

How the results depend on the processing

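Of 49 member values past the threshold, 22 stayed past it under each alternative run and 0 changed sign. The number of members called at E16.5 in KO vs HE was 0, and 1 with the litter as replicate block; leaving out single libraries gave 0 to 2. For adult vs E18.5 the count of 4 became 2 with the 4 adult libraries as 1 group, and for adult duodenum vs E18.5 the count of 2 became 1 after TMM scaling and 1 to 3 when single libraries were left out; for adult ileum vs E18.5 leaving out single libraries gave 3 to 6 (4 in full). For adult ileum vs duodenum it stayed at 3 under each alternative. Leaving out single cultures gave 6 to 8 dose calls in WT (11 in full) and 1 to 4 in KO (7 in full), 2 to 3 ligand calls in WT and 1 in KO, 0 to 2 KO vs WT calls by condition and 0 to 1 in the dose by genotype interaction. With the culture as replicate block, 17 ligand calls were made in WT, 10 in KO and 2 in KO vs WT by condition; with no filter on low values the last was 1, and TMM scaling gave 7 ligand calls in KO. The difference of Onecut2 between doses of Rspo3 in KO, not past the threshold, lay between -0.34 and 0.02 without single KO cultures and changed sign without KO7. The cause of these changes was not tested beyond the loss of samples. In the Cre line and between E16.5 and E18.5 the samples shared only a number, and the block changed no call of a member. edgeR and DESeq2 were run for E16.5 KO vs HE only, since whole reads could not be recovered in the other libraries, and the block was not run for culture means or adult vs E18.5, which share no numbers. Differences under the fold of 1.5 could not pass in sorted cells, whatever their adjusted p, and Pdx1 in the ileum is limited by its read count.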
